A study of Mus musculus with 21 samples.

Results

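The genes described here are 45 cell cycle genes, chosen by name from the 45706 genes of the table: 24 that act at the start of DNA replication (the G1/S and replication genes) and 21 that act in G2 and mitosis (the G2/M genes). The rule used names only, but the names were chosen with earlier results of these data known. RNA was sequenced from Myc-CaP, a cell line from a prostate tumour of a Myc-transgenic FVB mouse, and from tumours that these cells formed in FVB mice. The wild-type line (WT) was compared with 3 knockout lines, KO1, KO2 and KO3, all made with Cas9 and a single guide against IRE1α, the sensor of misfolded protein in the endoplasmic reticulum that is encoded by Ern1. There were 2 cell libraries of each line, 4 WT tumours, and 3 tumours of each KO line. All groups therefore share the Myc transgene. The labels give no age or sex of the mice, do not say whether a KO line is a clone, and do not say whether the cell libraries of a line came from separate cultures, so p-values cover the spread among libraries, which may be technical. WT is 1 line, and the host of a tumour supplies leukocytes, vessels and stroma to its RNA.

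Progress through the cycle is driven by cyclins and their kinases. Cyclin D (Ccnd1) starts the release of E2F factors from the retinoblastoma protein, and cyclin E (Ccne1, Ccne2) with Cdk2 completes it. E2F1 and E2F2 then switch on replication genes: Cdc6 and Cdt1 load the ring of MCM proteins onto origins, MCM10 and the GINS proteins help to turn it into an active helicase, and DNA polymerase alpha (Pola1), the sliding clamp PCNA, ribonucleotide reductase (Rrm1, Rrm2) and thymidylate synthase (Tyms) serve DNA synthesis. Later in the cycle B-Myb (Mybl2) and FOXM1, with the MuvB complex, switch on genes of mitosis, which are known to carry a CCAAT box and an element called CHR in their promoters. These encode cyclins A and B with Cdk1, the Aurora and Polo kinases, spindle motors, centromere proteins, and Cdc20 and Ube2c, which act in the destruction of cyclin B.

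The promoters of 6 members show how these elements lie. They are the 3 members of each phase with the smallest p-value in KO against WT cells among those that passed the test, had a promoter in the RefSeq table of GRCm38.p6 and held a searched motif. Each run is the 250 bases before the annotated start, 5′ to 3′ on the gene's strand. Capitals mark matches on either strand to an E2F site (searched as TTTCCCGC, TTTCGCGC, TTTGCCGC or TTTGGCGC), to the CCAAT box (CCAAT) or to CHR (TTTGAA). The first 3 belong to replication genes.
Mcm6 (chr1:128359706-128359955, minus strand): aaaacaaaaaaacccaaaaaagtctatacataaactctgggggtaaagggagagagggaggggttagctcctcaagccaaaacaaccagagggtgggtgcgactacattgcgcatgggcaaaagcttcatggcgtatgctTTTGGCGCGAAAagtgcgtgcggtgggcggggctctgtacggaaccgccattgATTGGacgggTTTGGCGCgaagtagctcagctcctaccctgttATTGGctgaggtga
Cdk2 (chr10:128705052-128705301, minus strand): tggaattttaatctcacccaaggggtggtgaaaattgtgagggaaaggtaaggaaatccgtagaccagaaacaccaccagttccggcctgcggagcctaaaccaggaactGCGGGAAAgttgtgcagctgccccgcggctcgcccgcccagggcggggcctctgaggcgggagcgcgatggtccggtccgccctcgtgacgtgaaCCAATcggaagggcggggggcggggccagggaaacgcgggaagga
Mcm10 (chr2:5012792-5013041, minus strand): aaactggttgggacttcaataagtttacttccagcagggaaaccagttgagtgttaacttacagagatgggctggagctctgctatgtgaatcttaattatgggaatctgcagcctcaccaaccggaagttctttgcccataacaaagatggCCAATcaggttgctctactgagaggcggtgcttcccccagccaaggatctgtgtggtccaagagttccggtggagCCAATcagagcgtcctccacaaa
The next 3 belong to genes of mitosis.
Mki67 (chr7:135716380-135716629, minus strand): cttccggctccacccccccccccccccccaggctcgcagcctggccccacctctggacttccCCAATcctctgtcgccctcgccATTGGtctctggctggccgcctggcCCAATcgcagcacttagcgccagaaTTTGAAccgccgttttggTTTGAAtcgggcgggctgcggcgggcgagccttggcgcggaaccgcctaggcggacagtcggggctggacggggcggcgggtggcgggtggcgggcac
Cenpf (chr1:189688087-189688336, minus strand): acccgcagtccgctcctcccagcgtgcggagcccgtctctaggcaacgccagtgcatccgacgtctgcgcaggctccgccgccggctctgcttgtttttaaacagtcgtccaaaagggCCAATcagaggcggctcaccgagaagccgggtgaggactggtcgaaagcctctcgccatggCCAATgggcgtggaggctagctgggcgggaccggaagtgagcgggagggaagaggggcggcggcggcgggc
Top2a (chr11:99024190-99024439, minus strand): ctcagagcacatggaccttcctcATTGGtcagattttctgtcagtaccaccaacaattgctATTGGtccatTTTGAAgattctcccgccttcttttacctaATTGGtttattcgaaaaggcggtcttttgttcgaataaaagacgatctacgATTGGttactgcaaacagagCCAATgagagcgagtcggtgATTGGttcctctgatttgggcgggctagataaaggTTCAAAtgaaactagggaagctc

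Mcm6 held 3 E2F matches, of which 2 on opposite strands overlapped, and 2 CCAAT boxes. Cdk2 held 1 E2F match and 1 CCAAT box, and Mcm10 held CCAAT boxes only. Mki67 and Top2a each held 2 CHR matches besides CCAAT boxes, and Cenpf held 2 CCAAT boxes and no CHR match. The table had a promoter for 35 of the 45 members. CHR was present in 1 of 19 G1/S promoters (5.26%) and in 7 of 16 G2/M promoters (43.8%), against 16.3% of 27025 promoters of the same length, 1 per gene. The CCAAT box was present in 63.2% of the G1/S promoters, 93.8% of the G2/M promoters and 34.5% of all. An E2F match was present in 31.6%, 6.25% and 1.91%, in the same order. These matches describe the letters and were not tested as binding sites. No promoter was in the table for Foxm1, Ccna2, Ccnd1, Ccne2, Mcm4, Gins1, Gins2, Aurkb, Kif20a and Tpx2.

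Library totals were 18105538 to 25068254 counts in cells and 15994285 to 27497796 in tumours, and all 45 members passed the filter on low counts in every comparison. Levels are given as CPM, a gene's count relative to its library's total, scaled by the trimmed mean of M values (TMM) over all 21 libraries. Ern1, the targeted gene, stood at 118 and 133 CPM in WT cells and at 171 to 196 CPM in KO cells, so its RNA level does not check the labels; a guide can disrupt a protein without lowering its RNA. Of the luminal prostate markers reported here, Krt8 was present in cells, while Epcam was at 0 and Krt18, Cdh1, Pbsn and Tmprss2 were under 1 CPM in all cell libraries. Single markers of leukocytes (Ptprc), fibroblasts (Col1a1) and endothelium (Pecam1) were at 0.234 CPM or below in cells. Other genes of these lists were present there. The 8 fibroblast markers summed to a mean of 15.2 CPM in WT cells, 20.7 in KO1, and 17.0 in KO2 and in KO3. The 10 leukocyte and macrophage markers summed to 8.42, 9.19, 8.07 and 9.93 CPM, in the order WT, KO1, KO2, KO3. In WT tumours the 2 means were 1421 and 260 CPM. WT tumour 1 stood apart by neutrophil and muscle RNA (S100a9 at 117 CPM, Acta1 at 863 CPM). WT tumour 4 stood apart by the gene Yam1, which took 24% of its counts against 6.16% to 8.47% in other tumours. WT tumours 3 and 4 carry the same number in their descriptions. Whether they came from 1 mouse is not stated, and the tests counted them as separate tumours.

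In cells, 14 of the 45 members were higher in KO than in WT and none was lower. They were 7 of 24 G1/S members and 7 of 21 G2/M members, by edgeR's quasi-likelihood test with Benjamini-Hochberg adjustment over 12254 genes. Of all genes tested, 14.8% were called, 4.99% as higher and 9.76% as lower. The median log2 fold change was 0.35 over the G1/S members, 0.68 over the G2/M members and 0.02 over all genes. The phase of some members is a choice, such as Mybl2, counted here as G1/S. Without Foxm1, Mybl2, Ccna2, Mki67 and Top2a the 2 phase medians were 0.29 and 0.68. Every KO library stood above both WT libraries for 12 of 24 G1/S members and for 15 of 21 G2/M members, against 16.1% of all genes. This comparison treats 6 libraries of 3 lines as 1 group, so differences between the KO lines count as error. No member was called without either WT cell library or with libraries summed per line, 4 to 7 were called as higher without a KO1 or KO2 library, and 22 and 25 without a KO3 library.

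Among the G1/S members the smallest p-value was that of Mcm6, a subunit of the MCM helicase ring. Mcm6 stood at 42.0 and 42.2 CPM in WT cells, 62.9 and 63.5 in KO1, 60.0 and 55.5 in KO2, and 59.9 and 55.3 in KO3. All KO libraries were above WT, and KO1 was just above KO2 and KO3. The log2 fold change was 0.50 (SE 0.08, edgeR adjusted p = 0.00383). Cdk2, the kinase partner of cyclin E, had the same form: 16.5 and 16.4 CPM in WT, 24.5 and 22.5 in KO1, 21.3 and 20.7 in KO2, and 21.1 and 22.2 in KO3 (log2 fold change 0.42, SE 0.09, edgeR adjusted p = 0.0138). Mcm10 rose from 6.47 and 7.08 CPM in WT to 15.8 and 15.3 in KO1, 12.2 and 13.1 in KO2, and 8.93 and 10.8 in KO3 (0.90, SE 0.22, edgeR adjusted p = 0.0227). No 2 lines overlapped in Mcm10, while KO2 and KO3 overlapped in both Mcm6 and Cdk2.

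Other subunits of the ring were Mcm7, which rose by 0.59 (SE 0.14), and Mcm5, which rose by 0.75 (SE 0.22), both on the log2 scale. Pola1, the catalytic subunit of DNA polymerase alpha, rose by 0.74 (SE 0.21), and Mybl2, the B-Myb factor, by 0.73 (SE 0.21). For these 4 genes the edgeR adjusted p was 0.0248, 0.0447, 0.04 and 0.0484. Mcm2 and Mcm3 had estimates of 0.45 and 0.48 and missed the threshold at edgeR adjusted p of 0.0558 and 0.0597. Enzymes of nucleotide supply had small estimates that did not pass: Rrm1 0.18, Rrm2 0.03 and Tyms 0.26. The cyclin E genes Ccne1 and Ccne2 had estimates of 0.29 and 0.13, and Ccnd1, the only G1/S member with a negative estimate, had -0.10 (SE 0.10).

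Foxm1, the forkhead factor of the G2/M program, had the smallest p-value among the G2/M members. It stood at 19.9 and 22.4 CPM in WT cells, 56.8 and 58.9 in KO1, 48.8 and 49.8 in KO2, and 29.2 and 32.8 in KO3. No 2 lines overlapped, and WT was lowest. The log2 fold change was 1.12 (SE 0.27, edgeR adjusted p = 0.0239). Annotated genes Tex52 and Gm44596 overlap Foxm1 on its own strand, and how shared reads were assigned is not given in the sources used here.

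Mki67, which encodes the proliferation marker Ki-67, stood at 39.8 and 45.5 CPM in WT, 90.2 and 80.1 in KO1, 75.2 and 70.3 in KO2, and 56.1 and 54.6 in KO3 (log2 fold change 0.74, SE 0.19, edgeR adjusted p = 0.0313). Cenpf, a kinetochore protein, stood at 17.9 and 16.2 CPM in WT, 51.4 and 53.7 in KO1, 37.1 and 36.3 in KO2, and 23.5 and 26.2 in KO3 (1.16, SE 0.32, edgeR adjusted p = 0.0389). The lines kept the same order in both genes, with no overlap. Also called were Kif20a, a kinesin of cytokinesis (0.87), Aurka, the Aurora A kinase (0.90), Top2a, topoisomerase II alpha (0.68), and Kif11, the spindle motor Eg5 (0.90), with edgeR adjusted p between 0.0383 and 0.049. Tpx2, which activates Aurora A on the spindle, had an estimate of 0.86 and an edgeR adjusted p of 0.111. Its 2 KO3 libraries, at 40.4 and 40.7 CPM, lay close to the 37.8 and 37.6 of WT.

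**Figure D1:**
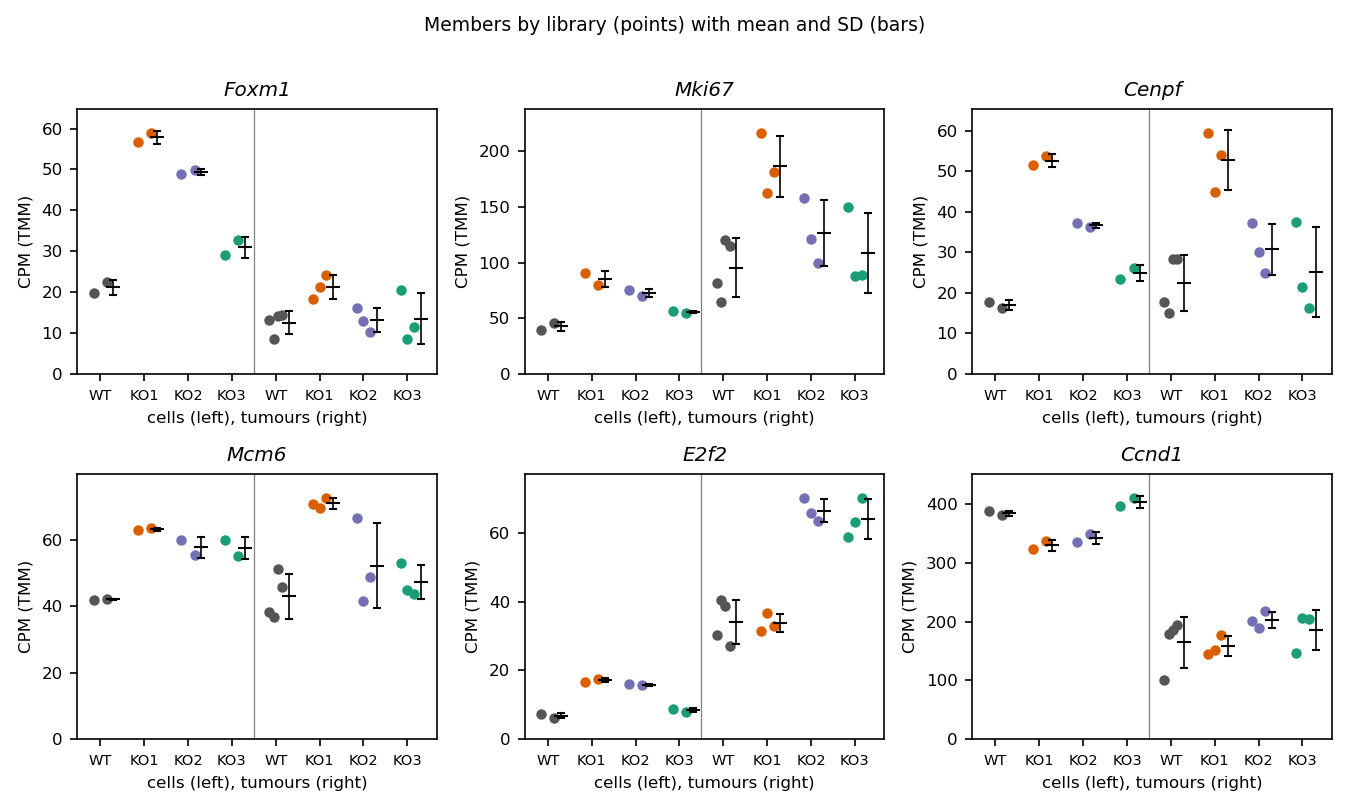
CPM of 6 members in each library (points, 1 per library) with the group mean and SD (bars), for cells left of the line and tumours right of it. In cells Foxm1, Mki67 and Cenpf step down from KO1 to KO2 to KO3 to WT, Mcm6 lies between 55.3 and 63.5 in the 3 KO lines, and E2f2 is highest in KO2 and KO3 among the tumours.

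Fitting each line as its own group gave more calls. These 3 comparisons share the 2 WT libraries, so their counts are not independent. In KO1 cells 20 of 24 G1/S members rose and 1 fell, and 21 of 21 G2/M members rose, against 38.2% of all genes called, 17.7% as higher and 20.5% as lower. The medians were 0.55 and 0.997, and 0.51 and 1.05 without Foxm1, Mybl2, Ccna2, Mki67 and Top2a. In KO2 cells 13 G1/S members rose, none fell, and 21 of 21 G2/M members rose, with medians of 0.36 and 0.71, against 37.7% of all genes called, 17.4% as higher and 20.2% as lower. In KO3 cells 9 G1/S members rose and 1 fell, and 7 G2/M members rose and 1 fell, against 24.4% of all genes called, 10.4% as higher and 14.1% as lower. Both KO3 medians were 0.13, and that of G1/S was 0.20 without WT cell library 2. Without WT cell library 1, or without the second KO3 library, 6 members in place of 16 were called higher in KO3, and without WT library 2 or the first KO3 library 9 and 10 were. By libraries, both of KO1 lay above both of WT for 23 G1/S and 21 G2/M members and below for 1 and 0 (36.4% and 35.4% of all genes). For KO2 they lay above for 17 and 21 and below for 2 and 0 (34.6% and 34.5% of all genes). For KO3 they lay above for 15 and 15 and below for 2 and 3 (33.1% and 33.7% of all genes).

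The 5 largest estimates in KO1 were those of Cenpf (1.62, SE 0.09), Foxm1 (1.45, SE 0.09), E2f2 (1.34, SE 0.12), Tpx2 (1.27, SE 0.07) and Kif11 (1.25, SE 0.09). KO2 gave 1.11 for Cenpf, 1.22 for Foxm1, 1.23 for E2f2, 0.98 for Tpx2 and 0.97 for Kif11. KO3 gave 0.54 for Cenpf, 0.55 for Foxm1 and 0.34 for Kif11, which passed, and 0.31 for E2f2 and 0.10 for Tpx2, which did not. The members that fell were different ones: Ccnd1 in KO1 by 0.22 (SE 0.07), and in KO3 Rfc4, a subunit of the clamp loader, by 0.38 (SE 0.11) and Cdc20, the activator of the anaphase-promoting complex, by 0.35 (SE 0.09). Cdc20 stood at 54.4 and 51.9 CPM in WT, 80.7 and 73.5 in KO1, 66.9 and 71.3 in KO2, and 43.7 and 39.9 in KO3. KO3 was thus below WT for Cdc20 while KO1 and KO2 were above it. These falls rest on few libraries: that of Ccnd1 was not called without WT cell library 1, WT cell library 2 or KO1 library 1 (edgeR adjusted p = 0.144, 0.104 and 0.0998) or in the length-scaled table (0.0549). Neither fall in KO3 was called without WT cell library 1 or KO3 library 2, where the edgeR adjusted p was 0.106 and 0.113 for Cdc20 and 0.22 and 0.221 for Rfc4. Rfc4 was also lost without WT cell library 2 (0.0578), in the length-scaled table (0.16) and with DESeq2 (adjusted p = 0.0826).

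**Figure D2:**
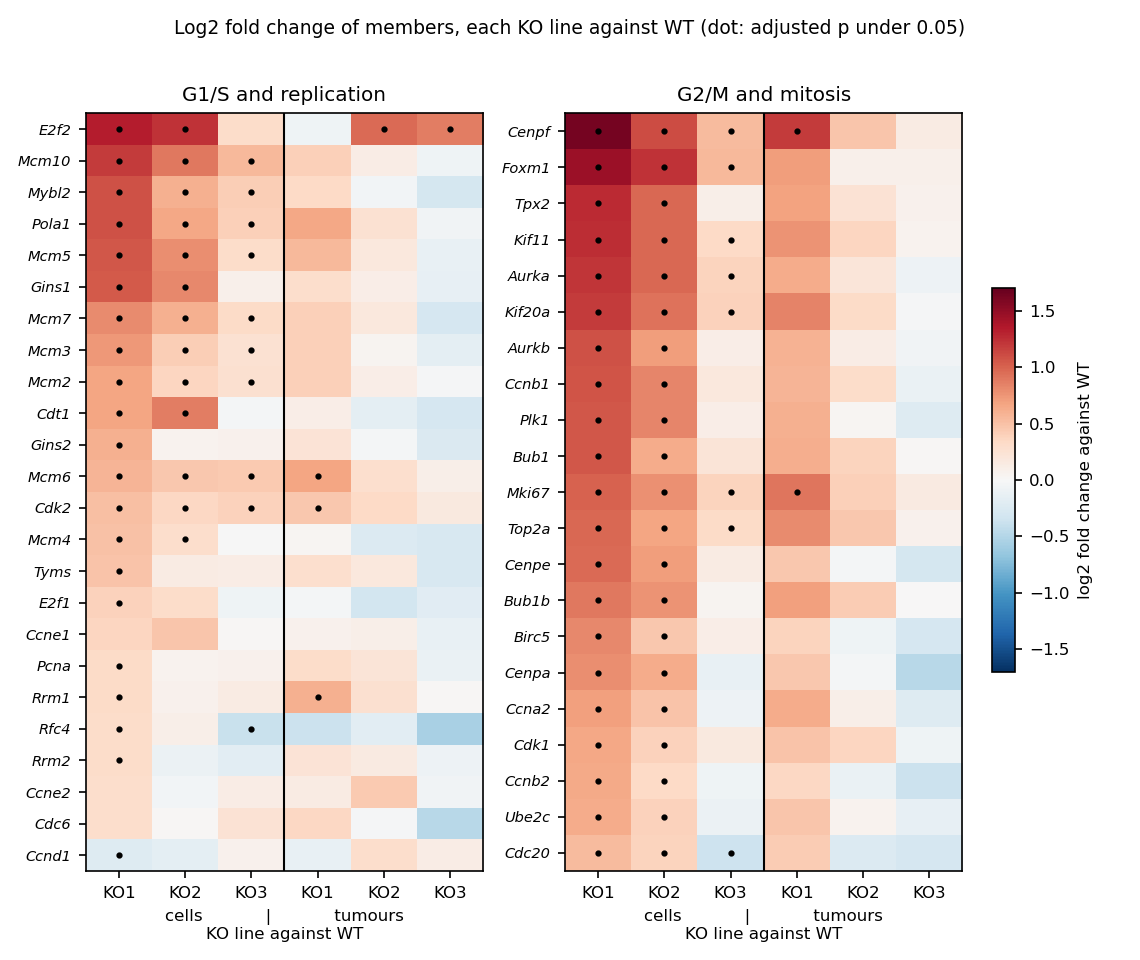
Log2 fold change of each member in KO1, KO2 and KO3 against WT (columns) in cells and in tumours, with members as rows in the order of their change in KO1 cells and a dot where the edgeR adjusted p was under 0.05. Of 21 G2/M members 21 carry a dot in KO1 and KO2 cells, 8 in KO3 cells, and 2 in KO1 tumours.

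The difference among the 3 KO lines was tested directly by an F test in edgeR. It called 18 of 24 G1/S members and 21 of 21 G2/M members in cells, against 30.3% of all genes. Of the G2/M members, Tpx2 (edgeR adjusted p = 2.1e-06), Cenpf (8.94e-06) and Ccnb1 (2.14e-05) had the smallest values, and of the G1/S members E2f2 (7.62e-05), Mcm5 (0.000126) and Pola1 (0.00023). E2f2, an activating E2F factor, stood at 7.27 and 6.25 CPM in WT cells, 16.7 and 17.5 in KO1, 16.1 and 15.6 in KO2, and 8.84 and 8.0 in KO3, so KO3 lay between WT and the other lines. Mcm5 stood at 45.0 and 41.8 CPM in WT, 91.0 and 89.5 in KO1, 70.9 and 79.7 in KO2, and 52.7 and 55.6 in KO3. Pola1 stood at 18.6 and 18.8 CPM in WT, 41.1 and 37.9 in KO1, 30.5 and 28.4 in KO2, and 24.6 and 24.8 in KO3. For Mcm5 and Pola1 no 2 lines overlapped.

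Ccnb1, cyclin B1, stood at 52.5 and 47.0 CPM in WT, 108 and 101 in KO1, 86.05 and 90.5 in KO2, and 56.3 and 56.1 in KO3. Cdt1, which loads the MCM ring, was highest in a KO2 library: 26.8 and 27.1 CPM in WT, 45.3 and 40.8 in KO1, 40.9 and 57.2 in KO2, and 26.9 and 25.7 in KO3 (F test, edgeR adjusted p = 0.000666). Rrm2, a subunit of ribonucleotide reductase, passed against WT in KO1 only, at 115 and 109.7 CPM against 89.6 and 90.8 in WT, with 81.0 and 87.8 in KO2 and 80.4 and 79.0 in KO3 (F test, edgeR adjusted p = 0.000495). The 6 G1/S members with no call in the F test were Mcm6, Cdk2, Ccne1, Ccne2, Cdc6 and Rrm1. Of these, Mcm6 and Cdk2 rose in each KO line against WT, which does not show that the lines are alike.

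Both KO3 libraries lay below all 4 libraries of KO1 and KO2 for 14 of 24 G1/S members and 21 of 21 G2/M members, against 22.8% of all genes, and above them for Ccnd1, against 23.1%. The line means descended from KO1 to KO2 to KO3 for 15 G1/S members and 21 G2/M members, against 21.9% of all genes. With WT lowest as well, 11 of 24 and 16 of 21 had the order KO1, KO2, KO3, WT, as had 9.84% of all genes. Skeletal muscle markers, a list with 4 of 8 members tested in cells, also differed among the lines but ran the other way, with WT highest. Their summed level was 9.28 and 9.60 CPM in WT, 8.06 and 8.65 in KO3, 2.91 and 3.32 in KO1, and 2.98 and 2.97 in KO2. The luminal keratin Krt8 set KO3 apart, at 21.9 and 23.2 CPM in WT, 30.1 and 31.7 in KO1, 27.1 and 26.0 in KO2, and 130.1 and 153 in KO3 (F test, edgeR adjusted p = 1.52e-08). Krt18, its partner keratin, was also called as higher in KO3 (edgeR adjusted p = 0.0281), at 0.694 and 0.61 CPM against 0.187 and 0.157 in WT. The part of either in the result was not tested.

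The mean log2 CPM of the members of a phase gave each library a phase score. The G2/M score was 4.98 and 4.93 in WT cells, 5.99 and 5.91 in KO1, 5.66 and 5.68 in KO2, and 5.12 and 5.12 in KO3. The G1/S score was 4.45 and 4.42 in WT, 5.06 and 5.04 in KO1, 4.78 and 4.85 in KO2, and 4.60 and 4.61 in KO3. Both scores placed the lines in the same order, with no overlap. Their difference, G1/S minus G2/M, was -0.53 and -0.51 in WT, -0.93 and -0.87 in KO1, -0.88 and -0.83 in KO2, and -0.52 and -0.51 in KO3. G2/M genes were thus further above WT than G1/S genes in KO1 and KO2, while in KO3 both were above WT by a like amount. The scores are not corrected for gene length, so only their differences between libraries can be read, and a score over chosen members carries no p-value.

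**Figure D3:**
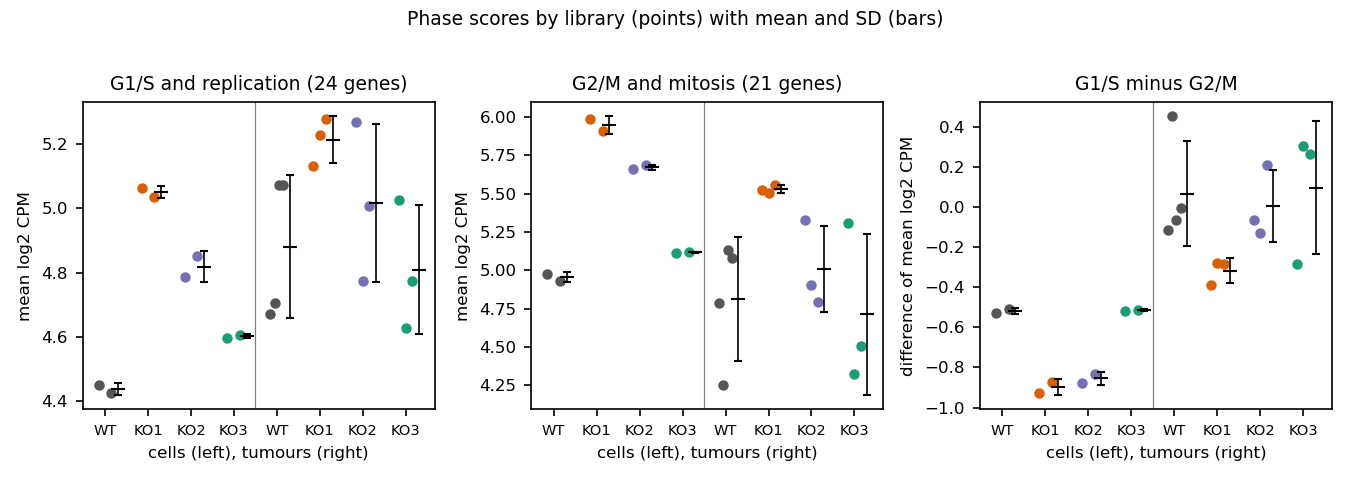
Mean log2 CPM of the 24 G1/S members, of the 21 G2/M members, and their difference in each library (points, 1 per library), with group mean and SD (bars), for cells left of the line and tumours right of it. Both phase scores separate the 4 groups of cells, while in their difference WT overlaps KO3 and KO1 overlaps KO2, and among tumours the KO1 G2/M scores lie above all others, where the G2/M score of WT tumours runs from 4.25 to 5.14.

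Genes of the cycle outside the 45 members were taken from 4 further lists in the same comparison of KO with WT cells, where 14.8% of all genes were called and 4.99% as higher. Genes are named here by smallest p-value, not by size of change. Of 22 other replication genes 8 rose and none fell. Named are Uhrf1, a reader of replicated DNA (0.65), and Rfc1, a clamp loader subunit (0.29). Dbf4 and Cdc7, the 2 parts of the kinase that fires origins, rose by 1.02 and 0.79. Of 22 other mitosis genes 10 rose and none fell. Among them were Ndc80 of the kinetochore (1.1), Anln (0.60) and Racgap1 (0.75) of cytokinesis, and Kif2c, a microtubule depolymerase (0.78). Of 15 tested genes of the pocket protein, E2F and MuvB list 2 rose, E2f7, a repressing E2F (0.79), and Lin54 of MuvB (0.73), and none fell. That is 13.3%, against 14.8% of all genes called in either direction and 4.99% as higher. Of 11 tested other cyclins, kinases and phosphatases 2 rose, Chek1, a checkpoint kinase (0.63), and Ccnf, cyclin F (0.90), and none fell. That is 18.2%, against the same 14.8% and 4.99%. The medians of these 4 lists were 0.33, 0.79, 0.08 and 0.35.

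CDK inhibitors hold the cycle back. Of 6 tested, 2 fell in KO cells and none rose, against 9.76% of all genes called as lower: Cdkn2b, which encodes p15, by 1.01 (SE 0.26, edgeR adjusted p = 0.0302), and Cdkn2a, the locus of p16 and ARF, by 0.45 (SE 0.09, edgeR adjusted p = 0.0102). Cdkn2a stood at 250.4 and 237 CPM in WT cells and at 156 to 199 CPM in the KO lines, with no overlap. By line 4 of the 6 were called in each of KO1, KO2 and KO3, where 38.2%, 37.7% and 24.4% of all genes were. Their directions were mixed: 2 higher and 2 lower in KO1 and in KO2, and 1 higher and 3 lower in KO3. Cdkn1a, which encodes p21, was higher in KO1 by 0.39 and in KO2 by 0.43, and in KO3 it fell by 0.35. The lines differed in Cdkn1a, at 23.7 and 21.8 CPM in WT, 31.6 and 28.4 in KO1, 28.8 and 32.4 in KO2, and 18.1 and 17.7 in KO3 (F test, edgeR adjusted p = 0.000143). Cdkn1b, which encodes p27, rose in KO2 by 0.20 and in KO3 by 0.21, and Rb1, the retinoblastoma gene, rose in KO1 by 0.42. Cdk4 fell in KO2 by 0.19 and Cdk6 rose in KO3 by 0.21. Cks1b, a small subunit of the CDK complexes, fell in KO3 by 0.93.

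In tumours no member was called in KO against WT by edgeR, against 3.65% of 14200 genes (1.28% higher, 2.37% lower), and DESeq2 called none either. At an unadjusted p under 0.05 there were 4 G1/S and no G2/M members. The medians were 0.12 for G1/S and 0.29 for G2/M, beside 0.00 for all genes. With single tumours left out they ran from 0.015 (without WT tumour 1) to 0.19 (without WT tumour 4) and from 0.12 (without WT tumour 2) to 0.40 (without WT tumour 3), and without line KO1 they were 0.0051 and 0.076. With WT tumours 3 and 4 summed as 1 library the medians were 0.20 and 0.36 and no member was called. Of all genes, 246 in place of 518 were then called. The smallest p-values were those of Cdk2 (0.34, SE 0.11, edgeR adjusted p = 0.112) and E2f2 (0.67, SE 0.24, edgeR adjusted p = 0.139). For no member did all 9 KO tumours lie on 1 side of all 4 WT tumours, which 1.89% of all genes did in each direction. In a bulk tumour, fewer cells of a type and less RNA per cell cannot be told apart, and this holds for every tumour value here.

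The effect of the knockout was compared between tumours and cells as an interaction over all 21 libraries. No member was called by edgeR, against 0.962% of 15173 genes (0.863% higher, 0.0989% lower), and none by DESeq2. At an unadjusted p under 0.05 there was 1 G1/S member and no G2/M member. The medians of the tumour effect minus the cell effect were -0.29 for G1/S and -0.42 for G2/M, and ran from -0.35 to -0.19 (the latter without WT tumour 3) and from -0.57 to -0.29 with single libraries left out. Foxm1 had an estimate of -0.77 (SE 0.42, edgeR adjusted p = 0.536), and Mcm6, with the smallest p-value of the G1/S members in cells, had -0.10 (SE 0.24). A call in cells and none in tumours therefore does not show a difference between the settings.

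By line, KO1 tumours had 5 members called higher and none lower, against 10.6% of 14483 genes called, 3.71% as higher and 6.86% as lower. They were Mcm6, Cdk2 and Rrm1 among the G1/S members and Cenpf and Mki67 among the G2/M members, and the medians were 0.30 and 0.62. Mcm6 stood at 38.2, 36.9, 51.2 and 45.9 CPM in WT tumours and at 70.9, 69.5 and 72.6 in KO1 (log2 fold change 0.67, SE 0.17, edgeR adjusted p = 0.0249). Cenpf stood at 17.8, 15.1, 28.2 and 28.3 CPM in WT and at 59.4, 44.8 and 53.8 in KO1 (1.18, SE 0.29, edgeR adjusted p = 0.0232). Neither gene overlapped between the groups. Cdk2 (0.46, SE 0.12), Rrm1, the large subunit of ribonucleotide reductase (0.60, SE 0.16), and Mki67 (0.91, SE 0.26) had edgeR adjusted p of 0.0322, 0.0324 and 0.0407.

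All 3 KO1 tumours stood above all 4 WT tumours for 9 of 24 G1/S and 17 of 21 G2/M members and below for none, against 11.5% and 10.1% of all genes. The calls rest on few libraries: without WT tumour 2, KO1 tumour 1 or KO1 tumour 3 no member was called, without KO1 tumour 2 there were 2, and without KO2 tumour 3, which enters only the spread, there were 3. Without WT tumours 1 and 4, which stood apart, only Cenpf was called. Markers of host cells moved in different ways in this line. The 8 fibroblast markers summed to 3149, 3276 and 2265 CPM in KO1 tumours and to 507 to 2777 in WT, with overlap, and 2 were called as higher. The 10 leukocyte and macrophage markers summed to 423, 370 and 306 CPM, within the 146 to 488 of WT, and 1 was called as higher. The 7 endothelial markers summed to 94.6 to 129 CPM in KO1 tumours and 82.2 to 175 in WT, and none was called. The 8 T cell markers summed to 6.52, 8.39 and 6.49 CPM in KO1 tumours and to 1.96 to 3.52 in WT, without overlap, and of the 4 tested Cd4 was called as higher. Of 4 neutrophil markers tested S100a8 and S100a9 were called as lower, with sums of the 6 markers of 8.62, 5.01 and 4.76 CPM in KO1 and 249, 4.8, 4.71 and 2.35 in WT. The part of these cells in the result was not tested. Col1a1 stood at 569, 924 and 632 CPM in KO1 and 586, 363, 290.1 and 155 in WT tumours. With the leukocyte marker level as a covariate, 10 members in place of 5 were called.

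KO2 and KO3 tumours each had 1 member called, the same gene in both, E2f2. It stood at 30.4, 40.5, 38.7 and 27.2 CPM in WT tumours, 31.6, 36.6 and 32.9 in KO1, 70.0, 65.7 and 63.6 in KO2, and 58.8, 63.1 and 70.2 in KO3. All tumours of KO2 and KO3 lay above all of WT and KO1, which overlapped. The log2 fold change was 0.97 in KO2 (SE 0.14, edgeR adjusted p = 0.00197), 0.87 in KO3 (SE 0.14, edgeR adjusted p = 0.00931) and -0.08 in KO1 (SE 0.14, edgeR adjusted p = 0.775). Of all genes, 3.04% were called in KO2 tumours (0.898% as higher, 2.15% as lower) and 1.24% in KO3 tumours (0.545% as higher, 0.690% as lower). Without KO3 tumour 2 or KO3 tumour 3 the KO3 call was lost, at an edgeR adjusted p of up to 0.0576, and in KO2 it was at most 0.0144 under every alternative run.

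Apart from E2f2, KO2 tumours lay on 1 side of all WT tumours for 1 member only, E2f1, which was lower. Of all genes 10.0% lay above WT in KO2 tumours and 9.74% below, and in KO3 tumours 6.69% lay above and 5.51% below. No member had all KO3 tumours on 1 side of all KO1 and KO2 tumours, where 4.59% of all genes lay above and 3.66% below. The F test among KO lines in tumours called E2f2 alone of the members (edgeR adjusted p = 0.00479), against 2.95% of all genes. DESeq2 called 5 members in that test, and edgeR called 2 without WT tumour 1 and 3 without KO3 tumour 1. The order of the lines in E2f2 was not that of the cells, where KO1 and KO2 were high and KO3 lay near WT. The tumour means descended from KO1 to KO2 to KO3 for 19 of 24 G1/S members and 20 of 21 G2/M members, against 19% of all genes. The medians were 0.14 (G1/S) and 0.20 (G2/M) in KO2 tumours and -0.13 and -0.07 in KO3 tumours. With single tumours left out the KO2 medians ran from 0.027 (without KO2 tumour 1) to 0.30 (without KO2 tumour 2) for G1/S and from 0.015 (without WT tumour 2) to 0.29 (without WT tumour 3) for G2/M. The KO3 medians ran from -0.26 (without KO3 tumour 1) to -0.029 (without WT tumour 3) for G1/S and from -0.46 (without KO3 tumour 1) to 0.088 (without KO3 tumour 2) for G2/M, whose sign was also positive without WT tumour 3, WT tumour 4 or KO3 tumour 3. With WT tumours 3 and 4 summed the KO3 G2/M median was 0.019. The largest fall in KO3 tumours was that of Rfc4, with an estimate of -0.55 (SE 0.19) that did not pass at an edgeR adjusted p of 0.192.

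Single tumours held the highest or lowest value of their line for many members. Of the 4 WT tumours, tumour 2 was the lowest for 21 of 21 G2/M members, against 19% of all genes. The lowest G1/S value fell in tumour 2 for 12 of 24 members and in tumour 1 for 11, where 27.5% of all genes had theirs. KO2 tumour 1 was the highest of its line for 43 of 45 members and KO3 tumour 1 for 41 of 45, against 30.8% and 34.5% of all genes. The lowest KO2 tumour was tumour 2 for 23 of 24 G1/S members and tumour 3 for 15 of 21 G2/M members, against 34.3% and 34.9% of all genes. In KO1 the highest value was spread over tumours 1, 2 and 3, with 14, 9 and 22 members, against 40.2%, 30.6% and 29.2% of all genes. The lowest fell most often in tumour 1, with 27, 10 and 8 members in tumours 1, 2 and 3. That is 60%, 22.2% and 17.8%, against 43.3%, 26.8% and 29.9% of all genes. The G2/M score was 4.79, 4.25, 5.14 and 5.08 in WT tumours, 5.52, 5.51 and 5.56 in KO1, 5.33, 4.90 and 4.80 in KO2, and 5.31, 4.32 and 4.50 in KO3. The 3 KO1 tumours lay above the other 10 and close to each other, while the other lines overlapped. Top2a stood at 116, 96.96, 180.4 and 169 CPM in WT, 315, 223 and 227 in KO1, 249.7, 162 and 168 in KO2, and 206, 127 and 118 in KO3, so KO2 tumour 1 lay above KO1 tumours 2 and 3.

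The G1/S scores covered a narrower range over the 13 tumours, although within KO1 their SD was larger (0.073 against 0.027 for G2/M, n = 3). They were 4.67, 4.71, 5.07 and 5.07 in WT tumours, 5.13, 5.23 and 5.28 in KO1, 5.27, 4.77 and 5.01 in KO2, and 5.03, 4.63 and 4.77 in KO3. The difference of G1/S minus G2/M ran from -0.39 to 0.45 over the 13 tumours, against -0.93 to -0.51 over the 8 cell libraries, without overlap. Among tumours it was lowest in KO1 (-0.39, -0.28 and -0.28) and in KO3 tumour 1 (-0.28), and highest in WT tumour 2 (0.45).

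In WT tumours against WT cells neither phase was called in a larger share than all genes, both directions counted. Of 24 G1/S members 9 were higher in tumours and 1 was lower, and of 21 G2/M members 1 was higher and 3 were lower. Of all 15173 genes tested 56.0% were called, 32.9% as higher and 23.1% as lower. The medians were 0.40 for G1/S and -0.20 for G2/M, beside 0.16 for all genes, and with single libraries left out the G2/M median ran from -0.29 to -0.042, the latter without WT tumour 3. Host RNA enters this comparison in full: the 7 endothelial markers rose 7 of 7, and Ptprc went from 0 in WT cells to 10.1 to 35.3 CPM in WT tumours. The part of host cells in the members' values was not tested. Without WT cell library 1, 6 members in place of 10 were called as higher. Without WT cell library 1, WT cell library 2 or WT tumour 2, 1 member in place of 4 was called as lower.

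E2f2 had the largest rise, from 7.27 and 6.25 CPM in WT cells to 27.2 to 40.5 in WT tumours (log2 fold change 2.34, SE 0.39, edgeR adjusted p = 4.24e-05). Ccne2, cyclin E2, went from 11.4 and 10.5 CPM to 22.1, 34.2, 45.8 and 59.4 (1.88, SE 0.31, edgeR adjusted p = 3.25e-05), and Cdc6, which loads MCM proteins, rose by 1.36 (SE 0.31). Tyms and Ccne1 rose by 1.09 each, Pcna by 0.75, Gins2 by 0.73, Rrm1 by 0.65 and Mcm4 by 0.51. Ccnd1 fell by 1.22 (SE 0.20, edgeR adjusted p = 2.93e-05), from 388 and 381 CPM in WT cells to 100.4, 179, 186 and 195 in WT tumours. The ring subunits Mcm6 and Mcm7 had estimates of 0.03 and 0.01.

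Among G2/M members Mki67 rose by 1.16 (SE 0.34, edgeR adjusted p = 0.00599), from 39.8 and 45.5 CPM in cells to 81.7, 64.7, 120.2 and 115 in tumours. Lower in tumours were Cdc20, which fell by 0.99 (SE 0.38), Ccnb2, cyclin B2, by 0.88 (SE 0.34), and Ube2c, the E2 enzyme of the anaphase-promoting complex, by 0.88 (SE 0.32). Their edgeR adjusted p were 0.0319, 0.0311 and 0.0259. Cdc20 stood at 54.4 and 51.9 CPM in WT cells and 25.2, 15.2, 38.5 and 28.6 in WT tumours, and did not overlap. Foxm1 had an estimate of -0.76 (SE 0.35) and missed the threshold at an edgeR adjusted p of 0.068.

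**Figure D4:**
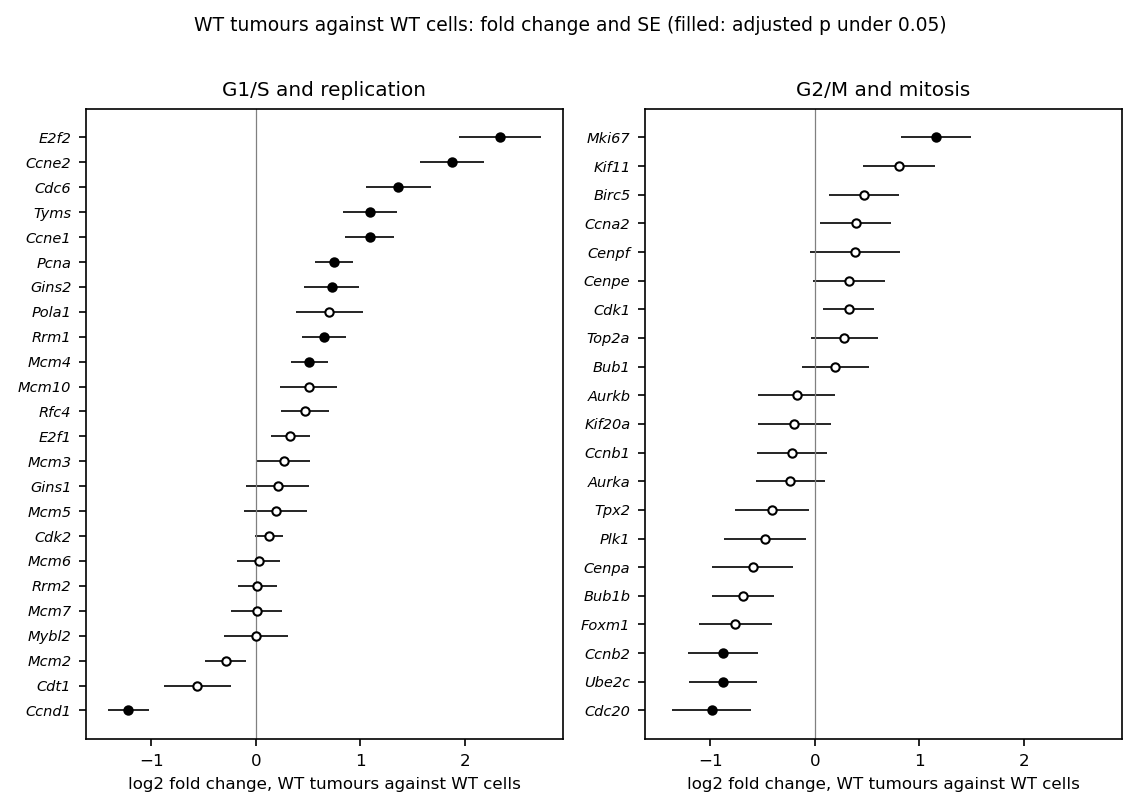
Log2 fold change of each member in WT tumours against WT cells with its SE (bars), filled where the edgeR adjusted p was under 0.05. E2f2 at 2.34 leads the G1/S members that were higher in tumours and Ccnd1 at -1.22 is the lowest, while Cdc20, Ccnb2 and Ube2c are the G2/M members called lower.

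Of the other cell cycle lists, few genes were called in tumours. In KO against WT tumours Cks1b fell by 0.55 (SE 0.12, edgeR adjusted p = 0.0287) and E2f5, an E2F that represses, fell by 0.49 (SE 0.12, edgeR adjusted p = 0.0382). Each was the only call of its list, of 12 and 16 genes, against 3.65% of all genes called. Cks1b stood at 76.1, 70.0, 81.1 and 91.1 CPM in WT tumours, 56.0, 63.7 and 66.6 in KO1, 54.4, 41.4 and 55.4 in KO2, and 63.0, 43.1 and 52.6 in KO3, so every KO tumour was below every WT tumour. In KO1 tumours Dbf4 (0.84), Lin9 of MuvB (0.86), Nuf2 (0.98) and Hmmr (0.90) of the spindle, and Cdc25b, a phosphatase that activates CDKs (0.76), were higher. Another gene of the pocket protein, E2F and MuvB list was called as lower. The calls were 1 of 22 other replication genes and 2 of 22 other mitosis genes. They were 2 of 16 in the pocket protein list and 1 of 12 other cyclins, kinases and phosphatases, against 10.6% of all genes. Dbf4 stood at 19.0, 15.5, 23.0 and 20.5 CPM in WT tumours and at 37.6, 34.7 and 35.9 in KO1. In KO2 tumours Cdc7 rose by 0.85 and Cks1b fell by 0.65, which were 1 of 22 and 1 of 12 genes of their lists. Of all genes 3.04% were called there. None of these lists had a call in KO3 tumours. None of the 7 CDK inhibitors was called in tumours by edgeR in any KO line.

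Some members share sequence or position with other genes, which bears on their counts. Pcna, Tyms, Ccnb1 and Ccnb2 have annotated pseudogenes (Pcna-ps1, Pcna-ps2, Tyms-ps, Ccnb1-ps, Ccnb2-ps), so part of their reads may be uncertain. Cdt1 is overlapped on its own strand by Gm20388, and Mcm7 by Mir25, Mir93 and Mir106b. Cdk2 and Rfc4 overlap Pmel and Eif4a2 on the opposite strand, and whether the counting used strand is not given in the sources used here.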

How the data were processed

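Expression was measured by paired sequencing of polyadenylated RNA (50 bp, stranded kit) in 8 cell libraries and 13 tumour libraries. The authors deposited gene tables of estimated counts, which need not be whole, with and without scaling by transcript length. The submitters' processing notes name Trim Galore 0.6.7, STAR, Salmon 1.5.2 and GRCm38, without their settings. Positions came from GENCODE M21, which held 45143 of 45706 gene IDs.

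The unscaled estimated counts were rounded. Genes passing filterByExpr were fitted with TMM scaling in edgeR 4.0.16 (R 4.3.3) and tested by its quasi-likelihood F test, with Benjamini-Hochberg adjustment over all genes tested and a threshold of 0.05. Every adjusted p in the text is from edgeR, except where DESeq2 is named. The SE of a log2 fold change is its size divided by the square root of F. Cells and tumours were fitted apart for KO against WT and by line, and together for the interaction and for WT tumours against WT cells. The script recovered known changes in simulated counts when tested on them. Changes as small as most of the medians given here were not simulated, so that check does not cover them. Levels are CPM, and phase scores are means of log2 CPM with a prior count of 2. Motifs were searched in RefSeq promoters (GRCm38.p6).

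The members, the other gene lists and the tests were chosen with earlier results of these data known. All members could be named. Library values were given for those with the smallest p in a phase or called among lines. From other lists up to 4 called genes with the smallest p were named per list and comparison. Cdkn1a, Cdkn1b, Cdkn2a, Rb1, Cdk4 and Cdk6 could be named besides. Library values of other genes, such as Cks1b and Dbf4, were added after their values were seen. Alternatives covered scaling, DESeq2 1.42.0, filters, the length-scaled table, a replicate block, covariates and left-out libraries or lines. Replicates differed by more than sampling noise, with a chi-square of at least 7.98 times its degrees of freedom in each pair. Some luminal prostate markers of the fixed list are not reported here.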

Additional observations from a re-analysis of the deposited data

Results flagged for a closer look

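Each member and phase score was examined over the 4 WT tumours, the 6 KO cell libraries and the 9 KO tumours, 144 groups of values in all. A library was flagged where its gap to its nearest neighbour, as a share of the group's range, passed a cutoff (Dixon's outlier test). The cutoff is lower in larger groups. It was passed in 2 groups, with gaps of 0.83 and 0.99 of the range. For groups drawn from a single normal distribution, chance passes these cutoffs in about 1 in 20, or 7.2 here. The KO groups mix lines, so that figure is only a guide. Ccnd1 was lowest in WT tumour 1, at 100.4 CPM against 179 in the next tumour, in the library with the highest neutrophil and muscle RNA. Birc5, which encodes survivin of the chromosomal passenger complex, was lowest in WT tumour 2, at 17.0 CPM against 30.3 in the next tumour, and that library was also the lowest for the other G2/M members.

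In cells the KO lines differed from each other by a direct F test in edgeR in 18 G1/S members and 21 G2/M members. For E2f2, Mcm5 and Pola1 the adjusted p was 7.62e-05, 0.000126 and 0.00023. For Tpx2, Cenpf and Ccnb1 it was 2.1e-06, 8.94e-06 and 2.14e-05. In tumours the same test called 1 G1/S member, E2f2, at an adjusted p of 0.00479, with all KO2 and KO3 tumours above all KO1 tumours.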

How the results depend on the processing

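The number of members called higher in KO against WT cells depended on how the lines were treated. It was 14 as reported, 22 with DESeq2, 9 with the length-scaled table, 34 with each line as its own group, 0 with libraries summed per line, and 8, 2 and 34 without line KO1, KO2 and KO3. With single libraries left out it ran from 0 to 25. The replicate block gave 5. The labels do not say whether equal replicate numbers pair the samples. Libraries of the same number correlated over 0.1 in 2 of 12 pairs of cell groups and 3 of 18 pairs of tumour groups. With 2 libraries per cell group, replicates 1 and 2 give the same correlation by construction. The 2 cell pairs over 0.1 are therefore 1 value (0.15, KO1 with KO3). These correlations cannot decide whether the samples are paired. In KO against WT tumours the count was 1 in place of 0 without line KO1 and with each line as its own group. In KO1 tumours it was 9 with DESeq2, 10 with the leukocyte covariate and 1 without WT tumours 1 and 4, a choice made after seeing the data, in place of 5. Differences among KO lines in tumours gave 5 members with DESeq2, and 2 with that covariate or without those tumours, in place of 1. The cause of these shifts was not tested. Leaving out single libraries gave 36 to 41 members for KO1 cells, 30 to 34 for KO2 cells, 6 to 16 for KO3 cells, 35 to 39 for differences among lines in cells, 0 to 0 for KO tumours, 0 to 7 for KO1 tumours, 1 to 1 for KO2 tumours, 0 to 1 for KO3 tumours, 1 to 3 for differences among lines in tumours, 0 to 0 for the interaction, and 6 to 13 for WT tumours against WT cells. No direction of a called member reversed under any alternative run. Groups of 2 to 4 libraries from 1 WT line limit what can be said of the genotype apart from the line.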
